A study of Homo sapiens with 12 samples.

Results

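A group of 10 genes of the brain and tumor extracellular matrix was described across 2 glioblastoma cell lines: the small leucine-rich proteoglycans BGN (biglycan), DCN (decorin) and LUM (lumican), the lecticans VCAN (versican), BCAN (brevican) and NCAN (neurocan), the link protein HAPLN1, the matrix glycoprotein TNC (tenascin C), the membrane proteoglycan CSPG4 (NG2) and the hyaluronan receptor CD44. The 10 members were chosen by name, as every probe annotated to 1 of these genes only. They are 10 of 18665 named genes on the array, with 20 of the 27578 probes named for 1 gene. RNA of cultured cells was hybridized to 12 Illumina HumanWG-6 v3 BeadChip arrays, 1 array per culture, in 4 groups of 3 cultures that the labels call biological replicates: U373 in co-culture with U87MG, U373 in monoculture, U87MG in co-culture with U373, and U87MG in monoculture. All cells grew untreated in the same DMEM medium with serum, and no group carried a genetic change made for the study. In co-culture the lines shared 3 ml of medium for 72 h through a membrane with 0.4 µm pores, after 3 h of adhesion. U373 cells always grew in the insert and U87MG cells in the bottom well, also in monoculture, so that the line and the chamber cannot be told apart. Each line is a single established line grown in culture, and p-values measure the spread between cultures of these lines.

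Brain matrix is poor in fibrillar collagen and rests on hyaluronan, a long sugar chain without a protein core. Lecticans bind hyaluronan with 1 end and tenascins with the other, and link proteins such as HAPLN1 lock the lectican onto the chain. CD44 holds hyaluronan at the cell surface. The small leucine-rich proteoglycans bind collagen fibrils and growth factors, and in brain they are known chiefly from vessels and meninges. CSPG4 marks oligodendrocyte precursors and pericytes and is often found on glioma cells.

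Of the 10 members, 6 gave a signal that could be tested: BGN, LUM, VCAN, TNC, CSPG4 and CD44 (6 of 10585 genes tested). A gene was tested when a probe of it lay above the background limit of the array on at least 3 of the 12 arrays. The neural lecticans BCAN and NCAN, the link protein HAPLN1 and DCN did not reach this limit. VCAN lies next to HAPLN1 on chromosome 5, and LUM lies next to DCN on chromosome 12, with 0 protein-coding genes between them in the RefSeq annotation. In both neighbouring pairs the first gene was detected and tested and the second was not.

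The promoters are shown of the 3 members that were higher in U373 in both comparisons of the lines. Each sequence is the 250 bases before the RefSeq start of the gene (GRCh38.p14), 5′ to 3′ on the strand of the gene, and capitals mark a GC box (GGGCGG, or CCGCCC where it lies on the other strand) or a TATA box (searched as TATAAA or TATATA). BGN lies at chrX:153494730-153494979 on the plus strand, VCAN at chr5:83471494-83471743 on the plus strand and TNC at chr9:115118158-115118407 on the minus strand.
BGN: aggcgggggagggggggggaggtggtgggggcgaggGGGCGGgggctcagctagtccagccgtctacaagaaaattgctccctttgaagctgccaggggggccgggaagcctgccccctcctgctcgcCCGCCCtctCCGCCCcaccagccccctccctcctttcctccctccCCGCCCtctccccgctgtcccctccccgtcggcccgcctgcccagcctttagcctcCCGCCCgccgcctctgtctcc
VCAN: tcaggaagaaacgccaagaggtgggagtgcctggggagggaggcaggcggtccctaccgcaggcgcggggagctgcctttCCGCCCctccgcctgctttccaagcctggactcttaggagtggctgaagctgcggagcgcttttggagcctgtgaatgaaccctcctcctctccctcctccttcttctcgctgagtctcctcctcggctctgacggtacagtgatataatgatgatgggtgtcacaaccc
TNC: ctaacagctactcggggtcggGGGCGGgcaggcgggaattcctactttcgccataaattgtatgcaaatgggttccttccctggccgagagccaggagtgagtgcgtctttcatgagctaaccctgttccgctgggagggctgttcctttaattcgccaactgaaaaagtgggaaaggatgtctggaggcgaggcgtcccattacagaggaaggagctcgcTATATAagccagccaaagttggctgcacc
The BGN window held 5 GC boxes and the VCAN and TNC windows 1 each. The TNC window alone of the 3 held a TATA box, 29 bases before the start. Searched in the same way on both strands, the CD44 window held 2 GC boxes and the CSPG4 window 1, both without a TATA box. Neither a CCAAT box (CCAAT) nor an AP-1 motif (TGANTCA) was found in any of these 5 windows. Of 35116 promoter windows of this length, 42.6% held a GC box, 12.8% a TATA box, 32% a CCAAT box and 6.57% an AP-1 motif. Such matches describe letters and do not show binding.

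On the arrays 24.3% to 33.9% of the probes lay above background. The correlation was 0.9768 to 0.9888 within a group and 0.9091 to 0.9269 between the lines. Background limits ranged between 4.38 and 5.63 on the log2 intensity scale. U373 monoculture replicate 2 had both the lowest share of probes (24.3%) and the highest limit (5.63). The next array in both was U373 co-culture replicate 2, with 28.2% and 5.09. Of 8 astrocyte markers 4 were detected on each of the 6 U373 arrays and 2 on each of the 6 U87MG arrays, while S100B, AQP4, ALDH1L1 and SLC1A2 were above background on no array. GFAP, the filament protein of astrocytes, averaged 9.52 in U373 monoculture, and U87MG cells showed none above background. SLC1A3 and FABP7 of this list were also higher in U373 monoculture. GJA1 went the other way, at 9.09 in U373 monoculture and 9.76 in U87MG monoculture. Of 6 fibroblast and pericyte markers, 6 were detected on every U373 array and 4 on every U87MG array. Of 5 microglia and macrophage markers, PTPRC, AIF1 and CX3CR1 were above background on no array, CSF1R on 12 arrays and CD14 on 10. In RNA of whole cultures, fewer cells of a kind and less RNA per cell cannot be told apart.

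The first question was how the lines differ in these genes when grown alone. BGN, VCAN and TNC were higher in U373 than in U87MG monoculture, and CD44 was lower; LUM and CSPG4 did not pass the test. BGN, a small proteoglycan with chondroitin or dermatan sulfate chains, was at least 803-fold higher, VCAN 3.78-fold and TNC 1.4-fold, while CD44 was 1.39-fold lower. Among all genes tested 27.9% were called higher and 31.4% lower (limma, adjusted p under 0.05), so that 3 of 6 members higher and 1 of 6 lower is not far from the background for such small numbers. The median difference of the 6 tested members was 0.53 on the log2 scale, and that of all genes tested was -0.05.

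**Figure D1:**
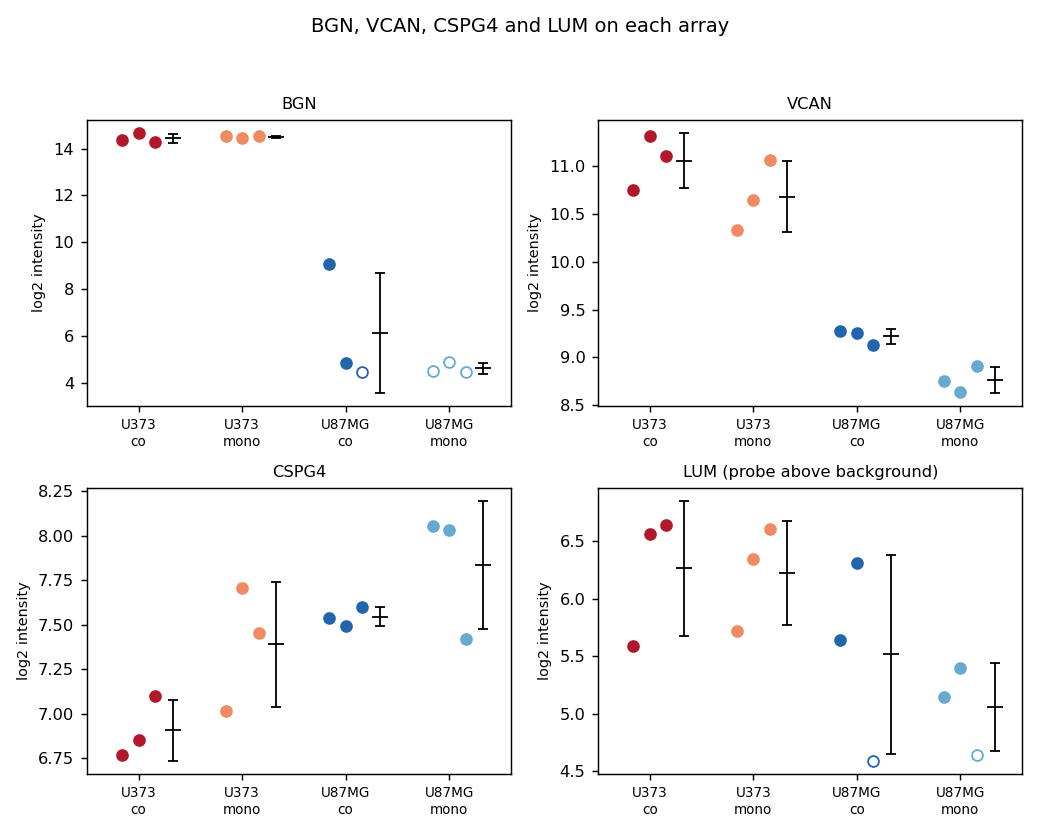
Log2 intensity of BGN, VCAN, CSPG4 and the LUM probe that was above background, on each of the 12 arrays, each gene with its own vertical axis; filled points are above the background limit of their array, open points are not, and the bar beside each group gives mean and SD (n = 3). BGN is between 14.30 and 14.66 on the 6 U373 arrays, and on the U87MG arrays it is at or near background except for 9.07 on co-culture replicate 1.

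BGN had log2 intensities of 14.34, 14.66 and 14.30 on the U373 co-culture arrays and 14.54, 14.46 and 14.53 on the U373 monoculture arrays. On the U87MG co-culture arrays it read 9.07, 4.83 and 4.48, and on the U87MG monoculture arrays 4.49, 4.88 and 4.46. All U373 arrays lay far above all U87MG arrays, and the probe was above background on 0 of 3 U87MG monoculture arrays. The fitted difference between the monocultures was 9.90 (SE 0.78) with an adjusted p of 2.96e-08 from limma. Since the U87MG level is at background, the fold is a bound: the U373 mean was set against, on each U87MG array, the higher of the measured value and the lowest signal above background. In co-culture the difference was 8.31 (SE 0.78, adjusted p = 2.41e-07), with the groups again not overlapping.

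The order of the BGN levels was U373 monoculture (14.51 ± 0.04, SD, n = 3), U373 co-culture (14.43 ± 0.20), U87MG co-culture (6.13 ± 2.55) and U87MG monoculture (4.61 ± 0.24). The U373 groups did not differ beyond their spread, with a co-culture effect of -0.08 and a 95% interval of -1.73 to 1.58. The effect in U87MG was 1.51 (interval -0.14 to 3.17, adjusted p = 0.726), and 1 array carried it: without U87MG co-culture replicate 1 the effect was 0.043. That array also set the wide error of BGN in every comparison, since all groups shared 1 estimate of the spread.

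U87MG co-culture replicate 1 stood apart in more genes than BGN. A set of 52 genes outside the Y chromosome was picked after the values were seen. They were on in U373 monoculture, at background in U87MG monoculture and at least 5 log2 units apart. Of these, 11 were above background on U87MG co-culture replicate 1, 5 on replicate 2 and 0 on replicate 3. The limits of these arrays differed, at 4.57, 4.38 and 4.97 in the same order, so the counts are not on a common scale. The highest reading of these genes on replicate 2, 4.83 for BGN, lay under the limit of replicate 3. The monoculture arrays were at background by the choice of the genes. Replicate 1 lay above the highest other U87MG array in 34 of the 52, by more than 1 log2 unit in 7, and the gap had a median of 0.16 with a range of -0.51 to 4.18. Some genes bright in U373 showed little or no gap, such as CCL2 (0.13), COL4A1 (0.03) and COL3A1 (-0.09). CCL2 was above background on replicate 2 (4.722) as well as on replicate 1 (4.855). The genes named next were among the largest gaps. CRYAB, a small heat shock protein, read 7.02 on replicate 1, which was 2.43 above the highest other U87MG array. MGP (matrix Gla protein) lay 2.02 above the others, ACTG2 (a smooth muscle actin) 2.04, IGFBP5 (an insulin-like growth factor binding protein) 1.93 and THY1, a surface marker of fibroblasts, 1.23, against 4.18 for BGN. All 6 were bright in U373 cells, between 11.97 and 14.43 in U373 co-culture. The part of this array's difference in the BGN result was measured only by leaving the array out, after which the difference between the co-cultures was 9.78; its source was not tested.

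**Figure D2:**
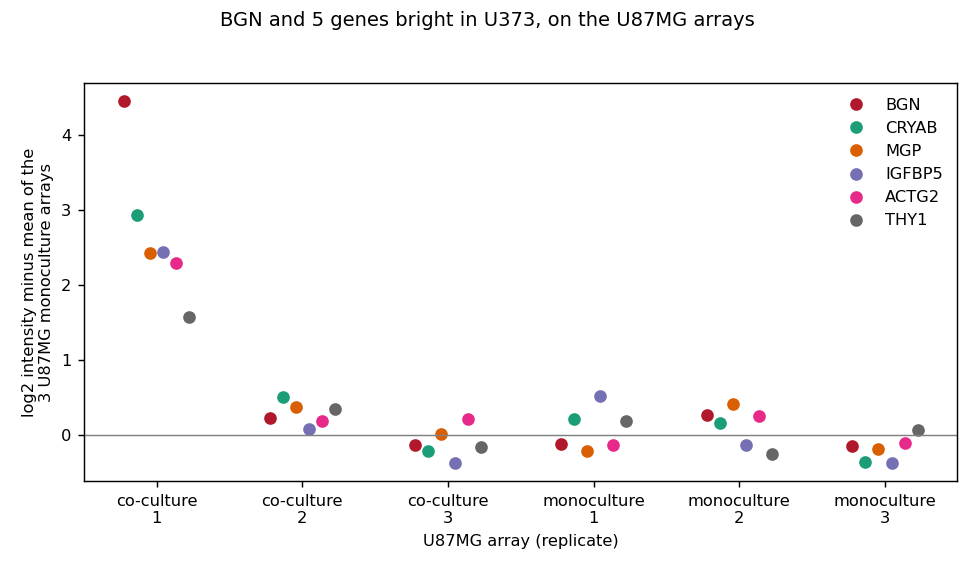
BGN and 5 genes bright in U373 cells, on the 6 U87MG arrays, as log2 intensity minus the mean of the 3 U87MG monoculture arrays, each array along the horizontal axis. The genes were picked for the largest gaps of the 52 compared, so all 6 lie above every other U87MG array on co-culture replicate 1, BGN by 4.18 and THY1 by 1.23, whereas the median gap of the 52 was 0.16.

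The fibroblast and pericyte markers counted above were brighter in U373 beside BGN, a gene that such cells also express. CSPG4, a member that also marks pericytes, went the other way (-0.64 in co-culture, called, and -0.45 in monoculture, not called). COL1A1 (collagen I) averaged 12.66 in U373 monoculture and 8.51 in U87MG monoculture, and PDGFRB, a pericyte receptor, 11.12 and 7.73 in the same order of lines. Their part in the BGN difference was not tested.

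LUM, a proteoglycan of collagen fibrils, had 2 probes, of which 1 was at background on all arrays. The other probe read 5.59, 6.56 and 6.65 on the U373 co-culture arrays and 5.72, 6.34 and 6.61 on the U373 monoculture arrays. It read 5.64, 6.31 and 4.59 on the U87MG co-culture arrays and 5.14, 5.40 and 4.64 on the U87MG monoculture arrays, the last of each at background. The monocultures did not overlap, whereas the co-cultures did. For the mean of both probes the difference between the monocultures was 0.58 (SE 0.25) and missed the threshold at an adjusted p of 0.0589 (limma). For the detected probe alone it was 1.16 (SE 0.39), with an adjusted p of 0.0162 when this probe stood for the gene in the fit. In co-culture the difference of the mean was 0.33 (95% interval -0.20 to 0.86, adjusted p = 0.278). DCN, the collagen-binding neighbour of LUM, had 4 probes, and 1 of them was above background on a single array, U87MG co-culture replicate 2.

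VCAN, the lectican that is also found outside the brain, was the only lectican tested. Its log2 intensities were 10.75, 11.32 and 11.11 in U373 co-culture and 10.34, 10.65 and 11.07 in U373 monoculture. They were 9.28, 9.26 and 9.14 in U87MG co-culture and 8.75, 8.64 and 8.91 in U87MG monoculture. Every U373 array lay above every U87MG array. The difference was 1.92 (SE 0.19, adjusted p = 3.95e-07, limma) between the monocultures and 1.84 (SE 0.19, adjusted p = 6.74e-07) between the co-cultures. The order was U373 co-culture (11.06 ± 0.29), U373 monoculture (10.68 ± 0.37), U87MG co-culture (9.22 ± 0.08) and U87MG monoculture (8.76 ± 0.14, SD, n = 3 each), in which the U373 groups overlapped and the U87MG groups did not.

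The lecticans of neural tissue were at background. BCAN had 3 probes, of which 1 was above background on 1 array, U87MG co-culture replicate 2. It read 4.405 there, just over the limit of 4.383, the lowest of all arrays. The same probe read higher on other U87MG arrays, such as 4.547 on monoculture replicate 1, where it counted as background. NCAN had 1 probe, which read 4.38 on U87MG co-culture replicate 2 and 5.16 on U87MG monoculture replicate 2, just over the limits of these arrays, and was at background on the other 10. HAPLN1 had 2 probes and was above background on 0 of 12 arrays. For these genes the arrays give only an upper bound, and no difference between groups was tested.

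TNC, a large glycoprotein that is low in adult brain and abundant in glioblastoma, was detected on all arrays by 2 probes. The mean of both was 10.46, 10.58 and 10.62 in U373 co-culture and 10.31, 10.38 and 10.40 in U373 monoculture. It was 9.53, 9.76 and 9.78 in U87MG co-culture and 9.90, 9.71 and 10.00 in U87MG monoculture. For this mean the U373 arrays lay above all U87MG arrays, whereas the second probe alone overlapped between the monocultures. The difference was 0.49 (SE 0.13, adjusted p = 0.00549, limma) between the monocultures and 0.86 (SE 0.13, adjusted p = 5.44e-05) between the co-cultures. By probe, the first gave a difference of 0.71 in co-culture and 0.60 in monoculture (SE 0.17), and the second 1.02 in co-culture and 0.38 in monoculture (SE 0.18); the probes were not tested against each other.

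CSPG4 was the only member called lower in U373 in co-culture. It read 6.77, 6.85 and 7.10 in U373 co-culture and 7.01, 7.71 and 7.45 in U373 monoculture, against 7.54, 7.49 and 7.60 in U87MG co-culture and 8.06, 8.03 and 7.42 in U87MG monoculture. The co-cultures did not overlap, and the monocultures did. The difference was -0.64 (SE 0.20, adjusted p = 0.012, limma) between the co-cultures and -0.45 (SE 0.20, adjusted p = 0.0639) between the monocultures. Whether these differences themselves differ is the test of the co-culture effects given with the co-cultures, which CSPG4 did not pass.

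CD44, the receptor that ties cells to hyaluronan, was bright in both lines, and its probes gave differences of unequal size, which were not tested against each other. Over the mean of 3 probes it was 9.96, 9.85 and 10.16 in U373 co-culture and 9.98, 9.41 and 10.08 in U373 monoculture. The U87MG values were 10.35, 10.19 and 10.56 in co-culture and 10.22, 10.15 and 10.52 in monoculture. All U373 arrays lay under all U87MG arrays of the same culture. The difference was -0.47 (SE 0.19, adjusted p = 0.0388, limma) in monoculture and -0.38 (SE 0.19, adjusted p = 0.0921) in co-culture, and in a fit with the replicate number as a block the difference in co-culture was called (adjusted p = 0.0279). By probe the difference in monoculture was -0.78 (SE 0.21) for that of transcript NM_001001392, -0.16 (SE 0.14) for NM_001001390 and -0.48 (SE 0.32) for NM_000610, as the annotation names them. The call in monoculture was lost when the brightest probe stood for the gene (-0.16, adjusted p = 0.35) and without U373 monoculture replicate 2 (-0.27, adjusted p = 0.207), U87MG monoculture replicate 1 (-0.51, adjusted p = 0.0593) or U87MG monoculture replicate 3 (-0.36, adjusted p = 0.154).

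**Figure D3:**
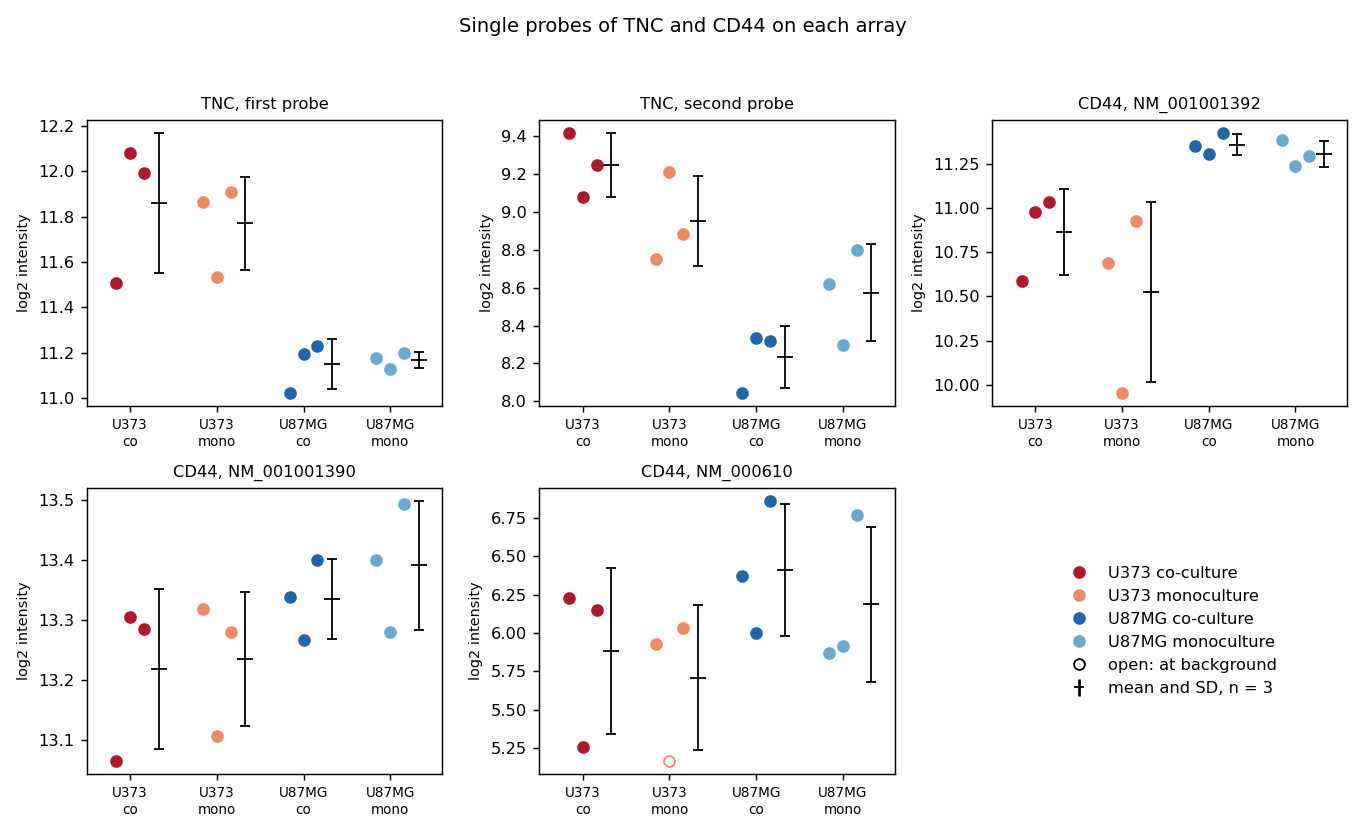
Log2 intensity of the 2 probes of TNC and the 3 probes of CD44 on each array, each probe with its own vertical axis; points are arrays, open where at background, and bars give mean and SD (n = 3). Both TNC probes have higher means in U373, and the second overlaps between the monocultures. Of the CD44 probes that of NM_001001392 separates the lines most, with U373 monoculture replicate 2 lowest at 9.95.

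Between the co-cultures of the 2 lines 3 of 6 members were called higher in U373 (BGN, VCAN and TNC) and 1 lower (CSPG4). Among all genes tested the shares were 25.5% higher and 31.9% lower. The median difference was 0.60 for the 6 members and -0.07 for all genes.

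The next question was whether the presence of the other line changed these genes. No member was called in either line. The differences within a line were small beside those between the lines for BGN and VCAN, but not for CSPG4, whose estimates were of like size in both. For LUM the effect in U87MG (0.31) was near the difference between the co-cultures (0.33), whereas the effect in U373 (0.06) was smaller. In U373, 0 of 6 members passed in limma where 0.113% of all genes did (12 of 10585); at an unadjusted p under 0.05 there were 1 of 6 and 1014 genes. In U87MG the share of all genes called was 0% (0 of 10585, with 742 at an unadjusted p under 0.05), and 0 of 6 members were called, with 1 at an unadjusted p under 0.05. The comparisons within the lines share arrays with those between them.

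**Figure D4:**
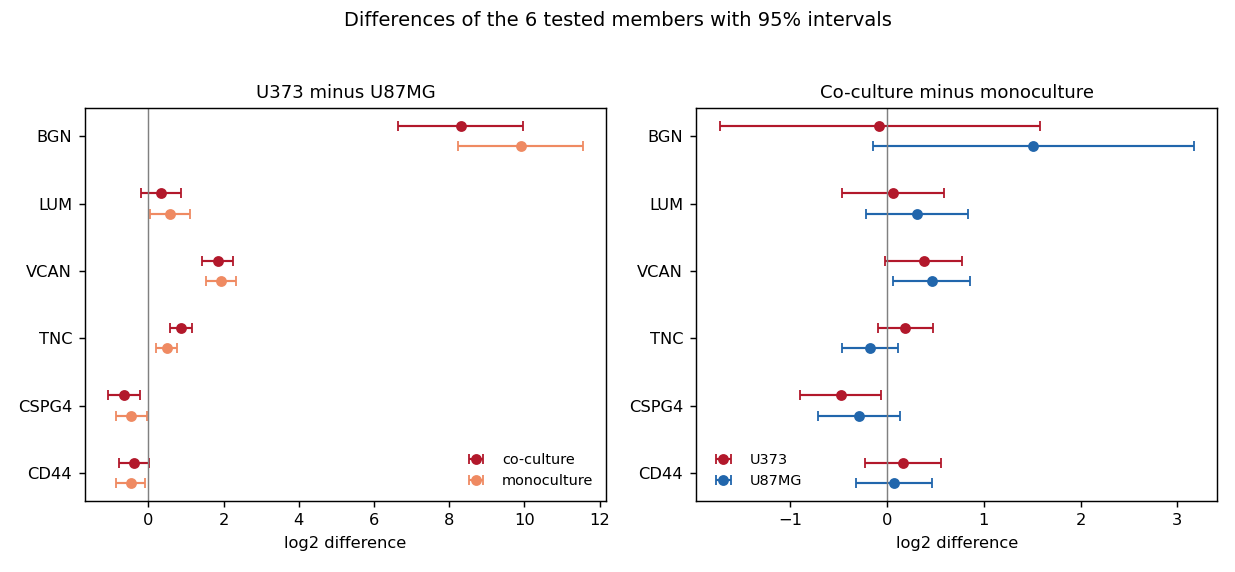
Log2 differences of the 6 tested members with 95% intervals from limma, U373 minus U87MG in each culture (left) and co-culture minus monoculture in each line (right), on horizontal axes of different length. BGN, VCAN and TNC lie right of 0 in both cultures on the left, and all intervals on the right hold 0 except those of CSPG4 in U373 and VCAN in U87MG, whose adjusted p-values were 0.444 and 0.7.

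CSPG4 gave the smallest p of the members in U373, with a co-culture effect of -0.48 (SE 0.20, interval -0.90 to -0.06, unadjusted p = 0.027, adjusted p = 0.444, limma). The U373 groups overlapped in this gene. VCAN gave the smallest in U87MG, with an effect of 0.46 (SE 0.19, interval 0.06 to 0.86, unadjusted p = 0.0278, adjusted p = 0.7), and here each co-culture array lay above each monoculture array. In U373 the effect on VCAN was 0.38 (interval -0.02 to 0.78, adjusted p = 0.548).

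For TNC the estimates had opposite signs in the lines, and the test of their difference did not pass. The co-culture effect was 0.19 in U373 (interval -0.09 to 0.48, adjusted p = 0.661) and -0.18 in U87MG (interval -0.47 to 0.11, adjusted p = 0.779). The difference of the effects was 0.37 (SE 0.19, unadjusted p = 0.0671, adjusted p = 0.821, limma). By probe this difference was 0.11 (SE 0.24) for the first and 0.64 (SE 0.25) for the second. In U373 each co-culture array lay above each monoculture array for the mean of the probes, whereas the U87MG groups overlapped.

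CD44 and LUM gave the smallest effects beside BGN in U373. The effect on CD44 was 0.17 in U373 (interval -0.23 to 0.56) and 0.07 in U87MG (interval -0.32 to 0.47). That on LUM was 0.06 in U373 (interval -0.47 to 0.59) and 0.31 in U87MG (interval -0.22 to 0.84). The difference between the lines in the co-culture effect was called for 0.00945% of all genes (1 of 10585, with 666 at an unadjusted p under 0.05) and for 0 of 6 members, 0 also at an unadjusted p under 0.05; for CSPG4 it was -0.19 (interval -0.79 to 0.40). The intervals of BGN, LUM, VCAN and CD44 in U373 reached over 0.49, the TNC difference between the monocultures, so that an effect of that size in these genes could have been missed with 3 arrays a group.

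Around the members, 135 genes of the same pathways were followed in 12 lists, of which 132 had a probe and 87 were tested. Between the monocultures 42 were higher in U373, 18 lower and 27 not called, set beside 27.9% higher and 31.4% lower among all genes. Between the co-cultures 45 were higher and 18 lower. In each of the co-culture comparisons 0 of the 87 were called.

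**Figure D5:**
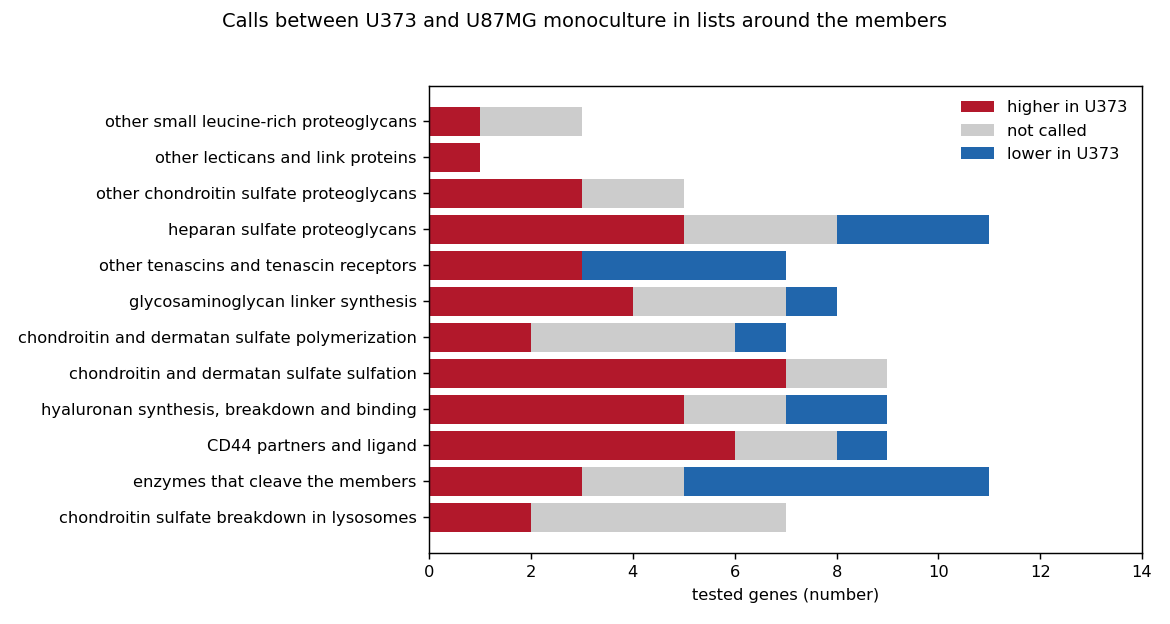
Number of tested genes in each of the 12 lists that were higher in U373 monoculture, not called, or lower, against U87MG monoculture (limma, adjusted p under 0.05). Genes for sulfation were higher in 7 of 9 with 0 lower, and enzymes that cleave the members were lower in 6 of 11.

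Among other proteoglycans, carriers of chondroitin sulfate were higher in 3 of 5 tested genes with 0 lower (median 2.33). PTPRZ1, a receptor phosphatase that binds TNC, was at least 5.3-fold higher, SPOCK2 (testican-2) at least 2.55-fold, and SRGN (serglycin), the proteoglycan of secretory granules, differed by 2.70 (SE 0.33, adjusted p = 3.79e-06, limma). Of the lecticans and link proteins beside the members only HAPLN3 was tested, at least 1.64-fold higher. Of 14 other small leucine-rich proteoglycans 3 were tested, and 1, ECM2, was higher (adjusted p = 0.00448), with U87MG at background and a bound of only 1.02-fold.

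Heparan sulfate proteoglycans went both ways, with 5 of 11 higher and 3 lower (median -0.16). GPC4 (glypican-4), which is anchored to the membrane by a lipid, averaged 10.30 ± 0.19 in U373 monoculture, at least 43.3-fold above its background level in U87MG. COL18A1, a collagen of basement membranes, was at least 3.12-fold higher and SDC2 (syndecan-2) at least 4.42-fold. TGFBR3 (betaglycan) went the other way, at background in U373 and at least 4.56-fold lower than in U87MG.

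Genes for the sulfation of chondroitin and dermatan chains were higher in 7 of 9 tested with 0 lower (median 0.90 in co-culture and 1.45 in monoculture). Among them 5 of 6 sulfotransferases were higher, and 2 of 3 genes that make or carry the sulfate donor. CHST15, which makes the doubly sulfated chondroitin E unit, was at least 3.9-fold higher. CHST3 and CHST7, which sulfate carbon 6 of the N-acetylgalactosamine, differed by 2.64 (SE 0.14) and 1.87 (SE 0.21), with adjusted p of 2.31e-10 and 1.63e-06. PAPSS2, which makes the sulfate donor, differed by 2.50 (SE 0.22, adjusted p = 8.58e-08, limma).

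In the synthesis of the linker to the core protein 4 of 8 were higher and 1 lower (median 0.47): B3GALT6 by 1.11, B4GALT7 by 0.88 and B3GAT3 by 0.69. XYLT1, which starts the linker, was the gene called lower (adjusted p = 7.98e-07, limma), with all U373 monoculture arrays at background and a mean over its 4 probes too dim in U87MG to give a bound on the fold. In the polymerization of the chain 2 of 7 were higher and 1 lower (median 0.16). CHSY1 (1.41, adjusted p = 8.86e-07) and CHPF (0.97, adjusted p = 0.000242), which build the chain, were higher, and CHSY3, a paralog of CHSY1, was lower by at least 1.21-fold, with its U373 level at background. Lysosomal enzymes that break the chain down were higher in 2 of 7 with 0 lower (median -0.10), namely IDUA (1.53, adjusted p = 9.09e-07) and GUSB (0.58, adjusted p = 0.00199, limma).

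Of the genes for hyaluronan 5 of 9 were higher and 2 lower (median 0.49). CEMIP2 and CEMIP, which take part in the breakdown of hyaluronan outside the lysosome, differed by 3.06 (SE 0.17, adjusted p = 4.43e-10) and 2.38 (SE 0.34, adjusted p = 2.19e-05). TNFAIP6 (TSG-6), which cross-links hyaluronan, differed by 1.79 (adjusted p = 2.82e-06), and HABP4, named as a hyaluronan binding protein, by 1.11 (adjusted p = 9.32e-06, limma).

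Partners of CD44 were higher in 6 of 9 with 1 lower (median 0.66), while CD44 itself was called lower in monoculture. That call of CD44 was lost under several of the alternatives. EPB41L3 (protein 4.1B), a linker of membrane proteins to the cytoskeleton, was at least 15.9-fold higher, RDX (radixin) differed by 1.90 (SE 0.19, adjusted p = 3.69e-07) and EZR (ezrin) by 0.87 (adjusted p = 0.000194). SPP1 (osteopontin), a ligand of CD44, fell by 1.59 (SE 0.29, adjusted p = 0.00026, limma).

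Receptors of tenascin were called in all 7 tested genes, 3 higher and 4 lower (median -0.69). ITGA9, an integrin chain that binds TNC, was at least 1.84-fold higher and TLR4, an innate immune receptor, at least 2.52-fold. ITGA2, a chain of a collagen and tenascin receptor, fell by 2.93 (SE 0.26, adjusted p = 1.41e-07) and ITGB3 by 1.49 (SE 0.31, adjusted p = 0.000683, limma). ITGB3 averaged 6.88 in U373 co-culture and 5.57 in U373 monoculture, and its difference between the lines in co-culture, -0.53, was not called (adjusted p = 0.157).

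Enzymes known to cleave the members were lower in 6 of 11 and higher in 3 (median -0.49). MMP3 (stromelysin-1) averaged 4.91 ± 0.21 in U373 monoculture and 8.52 ± 0.33 in U87MG monoculture, a difference of -3.60 (adjusted p = 8.2e-10). It was above background on only 1 of the 3 U373 monoculture arrays, so that its U373 level lies near background and the size of the difference is uncertain. ADAMTS1, a lectican-cleaving protease, fell by 3.05 (SE 0.24, adjusted p = 3.5e-08) and MMP2 (gelatinase A) by 2.73 (SE 0.16, adjusted p = 9.41e-10). BMP1, which trims the propeptide of biglycan, was higher by 2.92 (SE 0.16, adjusted p = 5.66e-10, limma). VCAN and BGN, substrates of enzymes in this list, were higher in the same line, and the RNA levels say nothing of cleavage.

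The genes whose levels followed each member most closely over the 12 arrays were sought outside the Y chromosome. They were found by the root mean square (RMS) difference of values centred on their own means, and are a description. For BGN they were CRYAB (RMS 0.47 log2 units, where BGN spans 10.2), IGFBP5 (0.61) and ACTG2 (0.68), all 3 among the genes above that were raised on U87MG co-culture replicate 1. For VCAN, with a span of 2.68, they were ATXN1 (0.17), MRS2 (0.17) and KCTD20 (0.17). For TNC they were ODF2L, ATXN1-AS1 (0.07 each) and LIG3 (0.08), for CSPG4 TMEM256 (0.18), PITPNM2 (0.19) and UBE2F (0.21), for CD44 CEP41 (0.12), OGFOD1 (0.13) and HIPK2 (0.13), and for LUM ZNF627 (0.17), OLFML2A (0.18) and ERMARD (0.20). For members with a narrow span many genes lie about as near. The BGN neighbours shared a change of many log2 units, which follows from choosing genes near a member of that span.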

How the data were processed

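The authors deposited variance-stabilized intensities on a natural log scale, made from BeadStudio signals of the 12 arrays, which were put on the log2 scale by division by ln 2. The log base was checked against the mean of 12 deposited columns of non-normalized signal and of unstated sample (unit other), where the slope was 0.9977 over 1590 probes with a signal over 1000. These 12 columns were used for nothing else. Of 48803 probes, 27578 name 1 gene, 13 several and 21212 none, and the last 2 kinds were left out. Probes of a gene were averaged. The background limit of an array was the mode of its values plus 3 SD, from the values below the mode. Differences were tested with limma 3.58.1 in R 4.3.3 (4 group means, all 12 arrays, moderated test, Benjamini-Hochberg over 10585 genes, called under 0.05), and tested on simulated data. Intervals are 95% intervals (scipy). The rank product of the study was not run, since it resamples genes. Promoters came from RefSeq, which gave an entry for 7 of the 10 members. Array number limits the precision. Members, lists and rules were chosen with earlier results of these data known. Named were all members, of each list up to 4 called genes with the largest difference between the monocultures (detected on the 3 arrays of the higher group), and 3 nearest genes for each tested member. Same-numbered arrays deviated together between the monocultures (correlations 0.124, 0.115 and 0.207), between the co-cultures (0.167, 0.153 and 0.132) and within U87MG (0.129, 0.178 and 0.151). Within U373 the correlations were uneven (0.194, -0.102 and 0.56). They were near 0 between U373 monoculture and U87MG co-culture (0.048, 0.006 and 0.064). Between U373 co-culture and U87MG monoculture they were 0.158, 0.015 and 0.22. No source names a shared day. The sample titles do not say whether same-numbered co-culture arrays of the lines came from the same well. The main fit treated all arrays as independent. Alternatives were other background limits, no filter, other rules for probes, only the groups compared, quantile normalization, centring, a trended variance, the replicate block and leaving out each array.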

Additional observations from a re-analysis of the deposited data

How the results depend on the processing

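Leaving out 1 array at a time kept 0 members called in each co-culture comparison, gave 3 to 5 called members between the monocultures (4 with all arrays), 4 to 5 between the co-cultures (4 with all arrays) and 57 to 63 called genes of the lists (60 with all arrays). BGN, VCAN and TNC were called in both comparisons of the lines under all alternatives run, and CSPG4 in co-culture likewise. CD44 in monoculture, beside the cases given with it, was not called when dim genes stayed in (adjusted p = 0.0752) or with only the groups compared (adjusted p = 0.0533). LUM in monoculture was called with its brightest probe or its probes above background (1.16, adjusted p = 0.0162), with only the groups compared (adjusted p = 0.0284), after quantile normalization (adjusted p = 0.0317), after centring (adjusted p = 0.0405) and without U373 co-culture replicate 1, U373 co-culture replicate 3, U87MG co-culture replicate 3 or U87MG monoculture replicate 2 (adjusted p = 0.0447, 0.0403, 0.0483 and 0.0282). CSPG4 in monoculture was called without U373 monoculture replicate 2 (-0.60, adjusted p = 0.0226) and without U87MG monoculture replicate 3 (-0.65, adjusted p = 0.0109). Small co-culture effects, called nowhere, changed sign: CD44 in U373 was -0.017 and in U87MG -0.056 with the brightest probe, CD44 in U87MG -0.02 after centring, LUM in U373 -0.012 and the VCAN difference of effects 0.03 after quantile normalization. With 1 array left out the effect ranged between -0.041 and 0.294 for CD44 in U373, -0.023 and 0.186 for CD44 in U87MG and -0.164 and 0.245 for LUM in U373, and the difference of effects between -0.115 and 0.22 for CD44, -0.382 and 0.014 for CSPG4 and -0.257 and 0.111 for VCAN. CD44 in co-culture was called without U373 monoculture replicate 2 (adjusted p = 0.0455) and with the replicate block (-0.38, adjusted p = 0.0279); the block changed no other call of a member and gave 63 called genes of the lists. The median of all genes moved by 0.026 with quantile normalization and 0.035 with centring. In all, single-member results kept direction and side of the threshold in 340 cases with 1 array left out and in 280 under other settings; the cause of the changes was not tested. Signal at background limits what can be said of DCN, BCAN, NCAN and HAPLN1.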
